A study of Mus musculus with 9 samples.

Results

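Plasmacytoid dendritic cells were described among the cells of whole mouse livers profiled by droplet-based 3′ single-cell RNA-seq. A cell was taken as a member when it had at least 200 detected genes, at least 3 UMIs (molecular barcodes, each standing for 1 captured transcript) of Siglech and Ccr9 together with at least 1 of Siglech, no UMI of Cd3e or Cd79a, and under 5 UMIs of C1qa, C1qb and C1qc together. The rule found 105 members among 8527 cells (1.23%), with 2 to 29 in each of 9 libraries. All mice were C57BL/6 and carried rtTA, the doxycycline-dependent activator, at the ROSA26 locus (genotype ROSA26-rtTA-IRES-EGFP). The WT group (2 libraries) had no tetYAP transgene and received doxycycline food for 7 days. The other groups carried tetYAP, a doxycycline-inducible transgene for constitutively active YAP (a co-activator of transcription), and received doxycycline for 3 days (YAP3d, 4 libraries) or 7 days (YAP7d, 3 libraries). According to the study's methods, rtTA was switched on by an albumin-driven Cre, which is active in hepatocytes, so the transgene was not designed to act in the members. The labels do not say that libraries came from separate mice, so the p-values below measure the spread between these libraries.

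Plasmacytoid dendritic cells are rare cells of blood, lymphoid organs and liver that sense viral nucleic acids through endosomal Toll-like receptors and can release large amounts of type I interferon. Their development and identity depend on the E protein TCF4, which binds E-box motifs in DNA, together with RUNX2, IRF8, SPIB and BCL11A. Siglech and Bst2 encode surface receptors that restrain interferon release, and Ccr9 encodes the chemokine receptor that directs mature cells to the gut. Their cytoplasm holds an expanded secretory apparatus.

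The E-box letters were searched for in the promoters of 17 genes, since TCF4 belongs to the E proteins. These were Siglech, Ccr9 and the 15 genes ranked highest by their ratio to other cells in these same data, named below. They are therefore no independent list of markers. RefSeq promoter windows on GRCm38.p6, each from 250 bases before to 50 bases after a gene start, were at hand for 12 of these genes, in 15 windows. CACCTG on either strand lay in 5 of the 15 windows (33.3%) and in 20.2% of all 32851 windows. CAGCTG lay in 1 of 15 (6.67%) against 16.3% of all, and the interferon response element pair in 1 of 15 (6.67%) against 3.44%. Matches of CACCTG and CAGCTG cannot overlap. These matches describe the letters only and say nothing of binding. The windows below belong to both genes of the rule and to the kallikrein gene Klk1, and are shown because each held 1 CACCTG, in capitals and written as CAGGTG where it lies on the opposite strand. Siglech is at chr7:55767934-55768233, Ccr9 at chr9:123766961-123767260 and Klk1 at chr7:44225110-44225409, all on the plus strand.
Siglech: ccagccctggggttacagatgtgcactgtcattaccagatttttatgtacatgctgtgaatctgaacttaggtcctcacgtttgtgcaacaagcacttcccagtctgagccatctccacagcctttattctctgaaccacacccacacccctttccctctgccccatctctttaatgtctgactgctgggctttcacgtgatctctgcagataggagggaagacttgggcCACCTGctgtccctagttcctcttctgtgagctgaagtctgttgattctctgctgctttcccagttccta
Ccr9: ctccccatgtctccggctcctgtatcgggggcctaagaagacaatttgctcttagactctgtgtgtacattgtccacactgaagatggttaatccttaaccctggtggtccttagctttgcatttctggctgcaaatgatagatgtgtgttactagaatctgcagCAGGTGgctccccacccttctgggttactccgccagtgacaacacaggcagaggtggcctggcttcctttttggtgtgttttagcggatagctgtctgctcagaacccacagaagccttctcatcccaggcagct
Klk1: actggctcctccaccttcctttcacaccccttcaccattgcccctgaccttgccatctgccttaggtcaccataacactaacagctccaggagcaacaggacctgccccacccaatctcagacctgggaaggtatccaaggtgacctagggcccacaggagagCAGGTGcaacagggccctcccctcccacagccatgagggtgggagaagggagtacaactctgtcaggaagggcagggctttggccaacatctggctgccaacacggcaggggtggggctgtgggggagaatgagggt

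The members held 826621 UMIs in all, with a median of 8111 UMIs and 2580 genes per cell. Their median depth per library was 5526 to 9068 UMIs, while that of the other cells ranged from 3172 to 11550, so depth differed less among members than among the cells around them. Cells with a shared barcode in another library numbered 93, 1 of them a member. Scrublet called 60 doublets (0.704%) and 0 of them were members. The Siglech and Ccr9 UMIs that chose the members had a median sum of 19 (3 to 47), Siglech alone a median of 13 and Ccr9 a median of 5. At the threshold, 3 members had 3 or 4 of these UMIs and 2 cells just outside had 2, against 88 members with 10 or more.

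Libraries stood apart in ways that touch the member counts. The exclusion genes kept out 55 cells that met the Siglech and Ccr9 threshold, 50 of them with at least 5 UMIs of the pair. Of these 55 cells, 30 came from YAP3d replicate 4, 17 from YAP7d replicate 3, 6 from WT replicate 2 and 1 each from YAP3d replicate 1 and YAP7d replicate 1. They carried Cd79a (37 cells, 34 of them with 1 or 2 UMIs), Cd3e (13 cells) or at least 5 C1q UMIs (15 cells, at most 8). In T cells, which should lack Cd79a, 28.1% had a Cd79a UMI in YAP3d replicate 4 and 12.2% in YAP7d replicate 3, and 30.03% had at least 5 C1q UMIs in the latter. Summed over cells, the 50 cells kept out with at least 5 UMIs of the pair had 3638 CPM (UMIs per 1000000 UMIs) of Bst2 against 3686 in members, 3524 of Irf8 against 3495, 963 of Klk1 against 1140 and 1059 of Tcf4 against 1332. Results that rest on the member count are therefore given with and without them. The transcript of the pseudogene Gm10709 (GRCm38.p6 chr9:7751672-7752325), picked after its values were seen, also divided the libraries. Over all cells it was at 3.65 and 11.04 CPM in WT, at 347 and 428 in YAP3d replicates 1 and 2, at 4.70 and 11.2 in YAP3d replicates 3 and 4, and at 363, 392 and 611 in YAP7d. According to the study's methods, whole-liver libraries were all made with the v2 kit. Differences between YAP7d and WT cannot be told apart from this divide. The YAP3d libraries on either side of it are set out below for the shares, Fdps, the sum of cholesterol genes and Hspa8. For several other genes only WT and YAP7d levels are printed, so the divide cannot be read from them.

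The label was checked against genes that the rule did not use. Values are CPM summed over the members of a library and averaged over 9 libraries, and since the cells were chosen by their transcripts, they are a description with no test. Tcf4 was at 1584 ± 463 CPM (SD, n = 9) in members, 147 in B cells, 30.5 in type 1 dendritic cells and 123 in all other cells. Irf8, the dendritic cell factor, was at 3595 ± 719 against 371, 2044 and 278. Runx2, which governs the exit of these cells from bone marrow, was at 512 ± 176 against 2.69, 1.81 and 12.6. All 3 were higher in members than in other cells in 9 of 9 libraries. Bcl11a (558 ± 335 against 22.8 in other cells) was also higher in 9 of 9, and Spib (311 ± 143 against 15.6) in 8 of 9, being at 0 in the 2 members of YAP3d replicate 3. Zbtb46 and Id2, factors of conventional dendritic cells, were at 2.36 ± 4.72 and 66.1 ± 66.6 CPM in members against 38.9 and 1949 in type 1 dendritic cells.

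The surface and secreted products followed the same pattern. Bst2, a named marker of the cell type that the rule left out, was at 3673 ± 631 CPM in members, 111 in B cells, 249 in type 1 dendritic cells and 553 in other cells. Per library it was at 3917 and 4303 in WT, 4163, 3268, 2316 and 3760 in YAP3d, and 4209, 3850 and 3275 in YAP7d. The lowest member level lay above the highest level of other cells, 796. Genes higher in members than in other cells in every library, Siglech and Ccr9 left out, were ranked by their ratio to other cells. The top 15 were Runx2, Bcl11a, Ly6d, Klk1, Cox6a2, Cd300c, Lag3, D13Ertd608e, Smim5, Cd209d, Klra17, Atp2a1, Upb1, P2ry14 and Atp1b1. Klk1, a tissue kallikrein protease, was at 912 ± 566 CPM against 6.36 in other cells, and Cox6a2, a muscle-type subunit of cytochrome oxidase, at 1111 ± 536 against 8.06. The calcium pump gene Atp2a1, also known from muscle, was at 186 ± 67.6 against 0.939. Lag3, an inhibitory receptor of activated T cells that marks these cells too, was at 470 ± 168 against 9.62. Ly6d, which is shared with the B lineage, was at 3145 ± 1165 in members and 1742 in B cells, higher in members in 7 of 9 libraries. Klk1 and Klra17 belong to families of near-identical genes, so their reads may be split between copies.

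**Figure D1:**
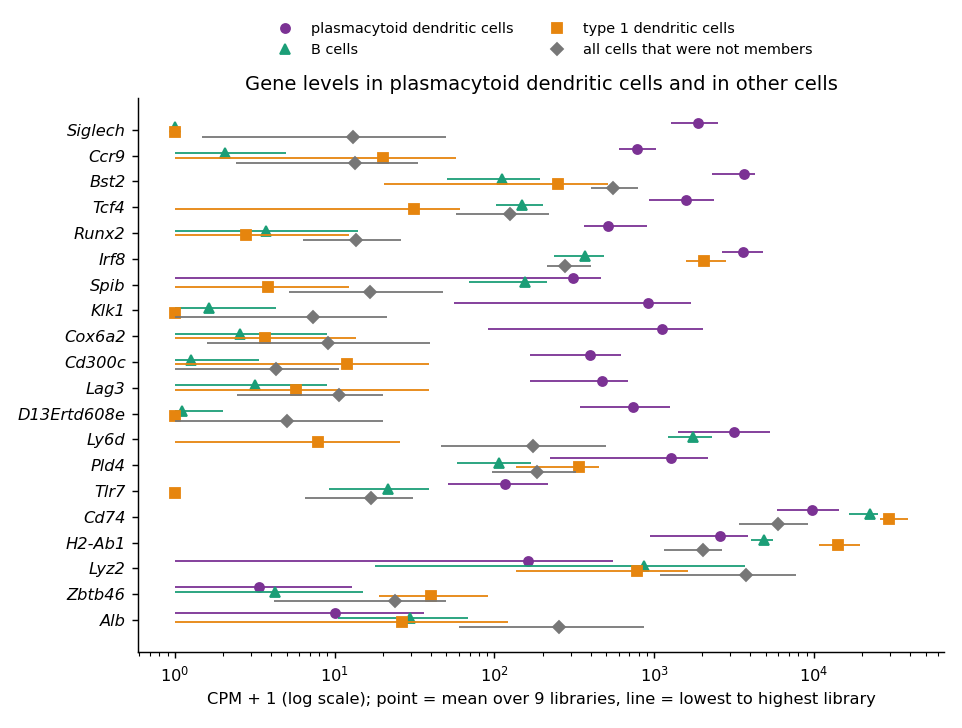
Level of marker genes on a log axis of CPM + 1, with points for the mean over 9 libraries and lines from the lowest to the highest library, in members, B cells, type 1 dendritic cells and all other cells. Tcf4, Bst2, Runx2 and Klk1 are higher in members than in other cells in 9 of 9 libraries, while Cd74 is higher in B cells and type 1 dendritic cells.

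To compare cells at equal depth, every cell was thinned to 2000 UMIs, which kept 104 members, 1119 B cells and 1672 T cells. Bst2 was then detected in 99.0% of members, 19.9% of B cells and 27.6% of T cells (100, 35.1 and 52.2% before thinning). Irf8 was detected in 100% of members, 45.9% of B cells and 10.1% of T cells, and Tcf4 in 91.4, 23.2 and 2.81%. Klk1 was detected in 64.4% of members and in 0.447 and 0.598% of B and T cells. The median depth before thinning was 8126 UMIs in members, 3331 in B cells and 4927 in T cells.

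Genes of the nucleic acid sensing pathway were present without the interferons themselves. Tlr7, the receptor for single-stranded RNA, was at 115 ± 60.6 CPM in members against 16.0 in other cells. Unc93b1, the chaperone that carries endosomal Toll-like receptors, was at 787 ± 170 against 238, Pld4, an endosomal exonuclease, at 1275 ± 507 against 183, and Irf7, which drives interferon transcription, at 454 ± 212 against 167. Each was higher in members in 9 of 9 libraries. Tlr9, the receptor for CpG DNA, had 0 of 826621 member UMIs, which allows up to 3.63 CPM, and 10 UMIs over all cells of the table. With so few UMIs in any cell, it was not checked whether the count table captures Tlr9 transcripts, so the limit holds for counted UMIs only. All 11 interferon genes of the list had 0 UMIs in members, with the same limit for each, and 5 UMIs over all cells. Isg15, an interferon-induced ubiquitin-like protein, was at 186 ± 312 CPM in members and 195 in other cells.

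Among chemokines Ccl4, which attracts leukocytes, was at 6660 ± 4281 CPM in members against 781 in other cells, 148 in B cells and 676 in type 1 dendritic cells. Its level per library was 1223 and 9510 in WT, 5520, 3660, 386 and 8119 in YAP3d, and 13380, 9454 and 8685 in YAP7d. The low libraries were WT replicate 1 and YAP3d replicate 3, and members exceeded other cells in 8 of 9 libraries. In single cells Ccl4 was detected in 98 of 105 members, with a median of 51 UMIs and up to 290. Of the antigen presentation genes, Cd74, the class II invariant chain, was at 9763 ± 2597 CPM in members, 22300 in B cells and 29310 in type 1 dendritic cells. It was lower in members than in both in 9 of 9 libraries. Secretory genes such as Sec61b, a subunit of the translocon, were higher in members than in other cells in 9 of 9 libraries (1135 ± 214 against 458 CPM), as was the selectin ligand gene Selplg (1026 ± 137 against 256). The homing receptors Ccr7 (3.95 ± 8.39 against 109) and S1pr1 (1.06 ± 3.17 against 49.2) were higher in members in 0 of 9.

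Of 11 lists of markers of other cells, 9 had a lower summed level in members than over all cells of the library in 9 of 9 libraries. The exceptions were plasma cell markers, lower in 7 of 9, and those of type 2 dendritic cells, higher in 9 of 9. Over the 14 endothelial markers the members' summed level was 250 to 1137 CPM in WT, 218 to 857 in YAP3d and 202 to 235 in YAP7d. The 9 macrophage markers, without the C1q genes, summed to 25.0 and 317 CPM in WT, 0 to 290 in YAP3d and 189 to 768 in YAP7d. Lyz2, a lysozyme of macrophages and monocytes, was at 162 ± 173 CPM in members against 3764 in other cells. The 15 hepatocyte markers summed to 55.1 to 262 CPM over all libraries, with Apoc3, Apob and Fga at 0. Summed levels of 7 B-cell markers were 55.1 to 152 CPM and of 6 T-cell markers 0 to 114 CPM. Type 1 dendritic cell markers (8 genes) summed to 99.8 to 196 CPM with Itgae at 0, and type 2 markers (6 genes) to 407 to 1086 with Clec4a4 at 0, against 101 to 312 over all cells. Of the latter the lectin genes Clec10a (338 ± 192 against 12.2 CPM in other cells) and Cd209a (300.0 ± 157 against 41.7) were higher in members in 8 of 9 libraries each, while Itgam, an integrin chain of myeloid cells, was higher in 0 of 9. Natural killer markers (7 genes, Eomes at 0) summed to 0 to 551 CPM, plasma cell markers (3 genes, Tnfrsf17 at 0) to 0 to 65.4, neutrophil markers (5 genes) to 0 to 588 and monocyte markers (8 genes) to 299 to 1316. The highest natural killer sum was in YAP3d replicate 3, and the highest neutrophil and monocyte sums were in YAP7d replicate 3. Genes of transitional dendritic cells (12 genes), which are not among the 11 lists, summed to 1699 to 5900 CPM against 4207 to 13800 over all cells. Their sum was lower in members except in YAP3d replicate 3, where it was higher (5900 against 4264). The part of free RNA in these levels was not tested.

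The question of whether YAP induction in hepatocytes went with a change in the number of these cells was put to their share among cells with at least 200 genes. The share was 0.960 and 0.848% in WT, 0.712, 1.36, 0.474 and 1.14% in YAP3d, and 2.34, 1.52 and 1.53% in YAP7d. Every YAP7d library was above every library of the other groups, while WT and YAP3d overlapped. The mean was 0.904 ± 0.0794% (SD, n = 2) in WT, 0.920 ± 0.400% (n = 4) in YAP3d and 1.79 ± 0.470% (n = 3) in YAP7d. YAP7d exceeded WT by 0.891 percentage points (exact two-sided permutation test, p = 0.1, the smallest p these group sizes allow). It exceeded YAP3d by 0.874 points (exact permutation p = 0.0571, smallest possible 0.0286), and YAP3d differed from WT by 0.0164 points (exact permutation p = 0.867). Adjusted over the 3 comparisons, the exact permutation p was 0.15, 0.15 and 0.867. No difference passed the threshold of 0.05. The exact 95% interval (Clopper-Pearson), a measure of counting error alone, ran from 0.0575 to 1.70% in YAP3d replicate 3 and from 1.28 to 3.89% in YAP7d replicate 1. A share of the recovered cells also moves with the number of the other cells.

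**Figure D2:**
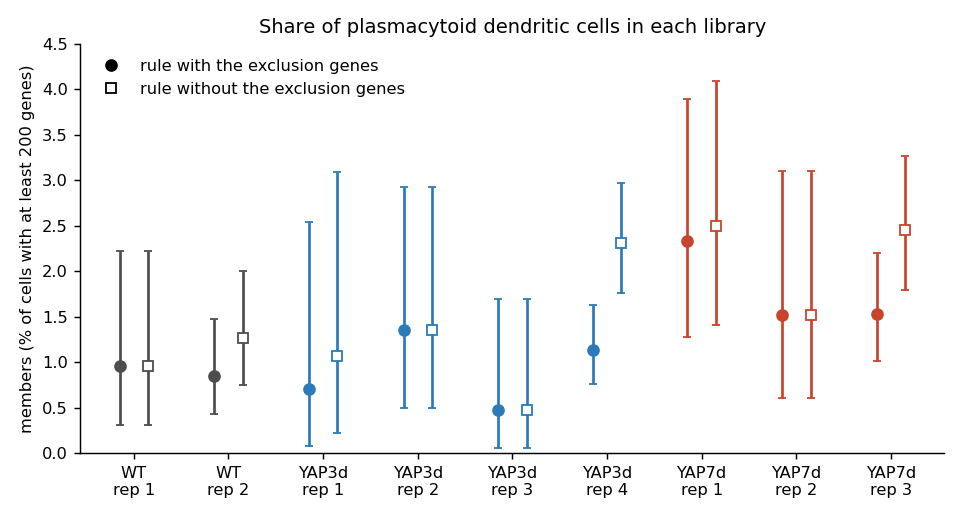
Members as a percentage of cells with at least 200 genes in each of 9 libraries, with exact 95% binomial intervals, by the rule and without its exclusion genes. By the rule the YAP7d libraries lie at 1.52 to 2.34% and the others at 0.474 to 1.36%. Without the exclusion genes YAP3d replicate 4 moves to 2.31%.

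The difference in share moved with the exclusion genes and with the denominator. Without the exclusion genes YAP3d replicate 4 was at 2.31% and overlapped YAP7d (2.50, 1.52 and 2.45%), and YAP7d differed from WT by 1.043 points (exact permutation p = 0.2) and from YAP3d by 0.856 points (exact permutation p = 0.143). Among cells with a UMI of Ptprc, the pan-leukocyte gene, the shares were 2.37 and 1.48% in WT and 2.70, 1.87 and 1.72% in YAP7d, a difference of 0.172 points (exact permutation p = 0.7). There YAP7d exceeded YAP3d by 0.646 points with overlapping values (exact permutation p = 0.257). With cells thinned to 2000 UMIs YAP3d replicate 4 was at 1.90% and YAP7d at 1.84, 1.30 and 1.80%, and the mean difference fell to 0.485 points (exact permutation p = 0.371). Among members, B cells and T cells alone, YAP7d lay at 9.09, 5.83 and 8.24% and YAP3d at 1.55, 3.68, 1.40 and 2.37%, a difference of 5.47 points (exact permutation p = 0.0286, adjusted over the 3 comparisons 0.0857). On the low side of the Gm10709 divide WT (0.960 and 0.848%) stood beside YAP3d replicates 3 and 4 (0.474 and 1.14%). On the high side YAP3d replicates 1 and 2 (0.712 and 1.36%) stood below the 3 YAP7d libraries.

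Gene expression was compared over the 7 libraries with at least 5 members, 2 of WT, 2 of YAP3d (replicates 2 and 4) and 3 of YAP7d, in 1671 genes that passed the filter on low counts. Between YAP7d and WT edgeR's quasi-likelihood test called 1 gene (0.0598% of those tested), and DESeq2 also called 1, the same gene. At an unadjusted p under 0.05 edgeR had 101 genes (6.04%). Between YAP3d and WT and between YAP7d and YAP3d edgeR called 0 genes (0.0%), with 40 (2.39%) and 87 (5.21%) at an unadjusted p under 0.05, and DESeq2 called 0 in both. These comparisons share their libraries.

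The called gene was Fdps (GRCm38.p6 chr3:89093588-89101967), which encodes farnesyl diphosphate synthase, an enzyme of the mevalonate pathway that supplies cholesterol synthesis and protein prenylation. Its level in members was 724 and 774 CPM in WT, 362, 392, 1213 and 471 in YAP3d, and 171, 60.5 and 153 in YAP7d. The 3 YAP7d libraries lay below all others, and YAP3d replicate 3, with 2 members, was the highest library. Fdps fell by 2.32 on the log2 scale between WT and YAP7d (SE 0.338, edgeR adjusted p = 0.0164). Between YAP3d and YAP7d the log2 difference was -1.58 (SE 0.339, edgeR adjusted p = 0.513), and between WT and YAP3d -0.74 (SE 0.348, adjusted p = 0.997). After thinning to 2000 UMIs it was detected in 58.8% of WT members, 55.3% of YAP3d members and 22.4% of YAP7d members. Over all cells of the libraries it was at 53.7 and 74.4 CPM in WT and 53.2, 27.9 and 31.2 in YAP7d. The edgeR call was lost without WT replicate 2 (log2 -2.16, adjusted p = 0.0981), without YAP7d replicate 2 (log2 -2.10, adjusted p = 0.0600) and without YAP7d replicate 3 (log2 -2.47, adjusted p = 0.0564). It was also lost in cells thinned to 2000 UMIs (log2 -1.75, adjusted p = 0.591) and when every library with a member entered the fit (log2 -2.38, adjusted p = 0.0676). With a replicate block in the edgeR fit it was lost as well (log2 -2.56, adjusted p = 0.667). Fdps also followed the Gm10709 divide without overlap. The 5 libraries on its high side, YAP3d replicates 1 and 2 and the 3 of YAP7d, had 60.5 to 392 CPM, and the 4 on its low side 471 to 1213. Within the high side, YAP3d replicates 1 and 2 (362 and 392) lay above YAP7d. What the divide contributed to the Fdps difference was not tested.

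Genes of cholesterol synthesis and its control were then described as a list of 24, Fdps among them. The list was drawn up after Fdps had been seen, so its counts are a description and lend the call no weight. With no filter on low counts all 23 genes beside Fdps had a fitted value between YAP7d and WT. Of these, 21 had a log2 fold change below 0 (35.8% of all genes in that fit) and 10 were lower at an unadjusted p under 0.05 (1.14%), with a median of -1.40 against 0.21 over all genes. Between YAP7d and YAP3d 21 of 23 were below 0 (46.9%) and 8 were lower at that level (1.51%). Between YAP3d and WT 14 of 23 were below 0 (35.5%) and 1 was lower (0.53%). Under the filter of the test 6 of the 23 remained, which depends on their level in WT, and all 6 were below 0 (49.6% of all tested genes). At an unadjusted p under 0.05, 4 of the 6 were lower in YAP7d than in WT (2.99% of all tested genes), 2 in YAP7d than in YAP3d (2.69%) and 1 in YAP3d than in WT (1.2%). Together with Fdps, which prompted the list and is among the 5, the groups of YAP7d and WT did not overlap in 5 of 7 (15.6% of all tested genes).

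With a lower count filter (min.count 3) edgeR called 6 genes between YAP7d and WT (0.123% of 4890). These were Fdps, Msmo1 and Idi1 of the cholesterol list, the heat shock genes Hspa1a and Dnajb1, and Clec4g, a lectin of sinusoidal endothelial cells. In that fit 17 of 17 tested cholesterol genes beside Fdps were below 0 (45.4% of all genes). This filter too depends on their level in WT, and with no filter it was 21 of 23. The list was drawn up after its values, so this count is a description only. Clec4g was at 74.9 and 258 CPM in members of WT and 17.99, 0 and 3.92 in those of YAP7d (edgeR adjusted p = 0.00387), and over all cells at 2167 and 2175 in WT and 66.4, 78.8 and 44.6 in YAP7d.

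The sum of the 24 genes in members was 2395 and 3459 CPM in WT, 1448, 1939, 6065 and 2075 in YAP3d, and 1061, 585 and 787 in YAP7d. By the Gm10709 divide it was 585 to 1939 on the high side and 2075 to 6065 on the low side, again without overlap. Over all cells the same sum was 495 and 600 in WT and 450, 363 and 325 in YAP7d, and its part in the members' difference was not tested.

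Idi1, the isomerase that acts just before Fdps, was at 225 and 211 CPM in WT and 45.0, 20.2 and 23.5 in YAP7d (log2 -2.74, SE 0.572, edgeR adjusted p = 0.151). Msmo1, a sterol demethylase, was at 125 and 446 in WT and 63.0, 20.2 and 50.9 in YAP7d (log2 -2.55, SE 0.503, adjusted p = 0.150). Hmgcs1, the synthase at the entry of the pathway, was at 125 and 363 in WT and 144, 20.2 and 31.3 in YAP7d (log2 -1.97, SE 0.629, adjusted p = 0.605). Insig1, which restrains the pathway when sterols are plentiful, was at 225 and 188 in WT and 54.0, 101 and 54.8 in YAP7d (log2 -1.58, SE 0.499, adjusted p = 0.602). None of these 4 passed the test. WT replicate 2 carried part of the list's difference. Without it 7 of the 23 other genes passed the filter, 5 were below 0 (48.3% of all genes in that fit), 2 were lower at an unadjusted p under 0.05 (2.23%) and the median was -0.91. Msmo1 then had a log2 difference of -1.11 and Hmgcs1 one of -0.74, while Idi1 was at -2.68 and Insig1 at -1.62.

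The sterol regulatory element, the site of the SREBP factors that control this pathway, was searched for as TCACNCCAC on both strands. RefSeq windows were at hand for 17 of the 24 genes, in 20 windows, and not for Fdps. The letters lay in 1 of the 20 windows (5.0%) and in 1.24% of all windows. The window is that of Hmgcs1 at GRCm38.p6 chr13:119690101-119690400, plus strand, with the match in capitals.
Hmgcs1: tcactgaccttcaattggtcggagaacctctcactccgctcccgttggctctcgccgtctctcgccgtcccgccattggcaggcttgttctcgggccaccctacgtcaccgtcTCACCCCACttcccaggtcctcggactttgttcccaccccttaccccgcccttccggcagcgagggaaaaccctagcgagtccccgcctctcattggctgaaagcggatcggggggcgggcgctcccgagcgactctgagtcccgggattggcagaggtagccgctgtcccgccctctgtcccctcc

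**Figure D3:**
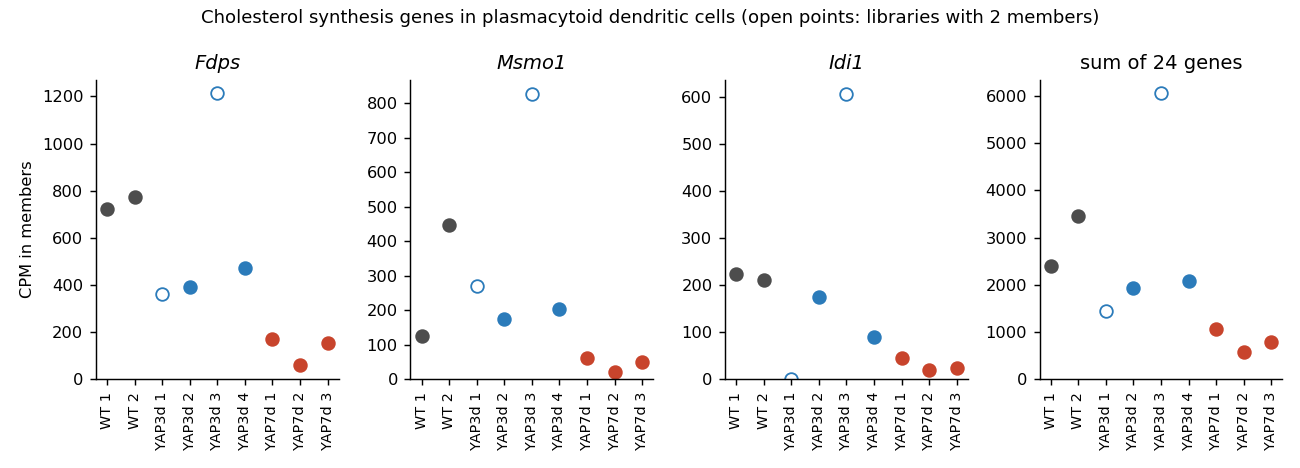
CPM in members of each library for Fdps, Msmo1, Idi1 and the sum of 24 cholesterol genes, with open points for libraries of 2 members. The sum lies at 585 to 1061 in YAP7d and at 1448 to 6065 in the other groups.

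Immediate-early and heat shock genes are known to answer to tissue dissociation. Of 26 genes, 21 were tested, 0 were called and 8 were lower in YAP7d than in WT at an unadjusted p under 0.05 (2.99% of all tested genes), with a median log2 difference of -0.63. With min.count 3 edgeR called 2 of 25 tested genes lower, Hspa1a (adjusted p = 5.57e-05) and Dnajb1 (adjusted p = 0.00387). The lower level in YAP7d rested on WT replicate 2: without it 2 of 20 were lower and 6 higher at an unadjusted p under 0.05 (2.23 and 4.07% of all genes in that fit), and the median was 0.48. Hspa1a, an inducible HSP70 gene with a near-identical copy, was at 24.9 and 1900 CPM in WT, 0, 0, 1323 and 85.7 in YAP3d, and 45.0, 0 and 3.92 in YAP7d. The high values were in WT replicate 2 and YAP3d replicate 3, and both groups also held libraries under 100 CPM. Dnajb1, a co-chaperone of HSP70, was at 225 and 950 in WT and 180, 60.5 and 74.4 in YAP7d (log2 -2.48, SE 0.5263, edgeR adjusted p = 0.151), and its log2 difference was -0.89 without WT replicate 2. Hspa8, the constitutive HSP70, was at 2645 and 3764 CPM in WT, 2805, 2157, 4576 and 2251 in YAP3d, and 1979, 1250 and 983 in YAP7d (log2 between YAP7d and WT -1.14, SE 0.296, edgeR adjusted p = 0.479), and its log2 difference was -0.75 without WT replicate 2. The YAP7d libraries lay below all others in Hspa8 and also below the level of all cells of the same library. So did YAP3d replicates 1 and 2 (2805 against 2817 and 2157 against 2410), which share the high side of the Gm10709 divide. In WT and in YAP3d replicates 3 and 4, on its low side, members lay above all cells. What the divide contributed was not tested.

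**Figure D4:**
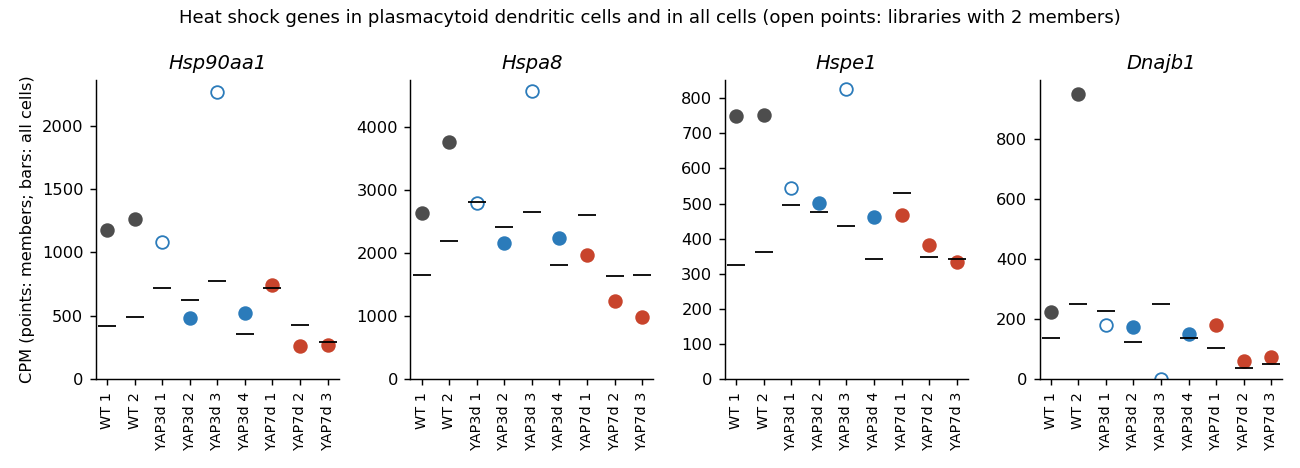
CPM of Hsp90aa1, Hspa8, Hspe1 and Dnajb1 in members (points, open for libraries of 2 members) and in all cells (short bars) of each library. Dnajb1 in members is at 950 in WT replicate 2 and at or below 225 in the other libraries, and Hspa8 is at 983 to 1979 in YAP7d and 2157 to 4576 in the other groups.

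In the lists of transcription factors and of surface and secreted genes 0 genes were called by edgeR in any of the 3 comparisons. The list of 15 factors includes Id2, Id3 and Zbtb46, which are not factors of this cell type, and 13 of the 15 were tested. At an unadjusted p under 0.05, 1 was higher in YAP7d than in WT and 0 were lower (3.05 and 2.99% of all tested genes), and the median was 0.13. The higher gene was Id2, an inhibitor of E proteins, at 24.9 and 46.9 CPM in WT and 189, 20.2 and 149 in YAP7d (log2 1.82, SE 0.845, edgeR adjusted p = 0.767), so the groups overlapped. Between YAP7d and YAP3d Id2 was higher and Id3 lower at that level. Tcf4 was at 1048 and 1384 CPM in WT, 2353, 2048, 1875 and 1342 in YAP3d and 1700, 1572 and 932 in YAP7d (log2 0.24 between YAP7d and WT, SE 0.310, edgeR adjusted p = 0.898). Bst2 had a log2 difference of -0.05 (SE 0.231) and Irf8 one of 0.13 (SE 0.243). Of 30 surface and secreted genes 28 were tested and 0 had an unadjusted p under 0.05 between YAP7d and WT. Between YAP7d and YAP3d 3 were higher (Klk1, Cd300c and Cd4) and 3 lower (Cd8a, Cox6a2 and Cd7) at that level, against 2.51 and 2.69% of all tested genes. Between YAP3d and WT 2 were lower (Klk1 and Cd4), against 1.2%.

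Some of these genes stood lower or higher in YAP3d libraries without passing the test. Klk1 was at 873 and 1689 CPM in WT, 633, 327, 55.1 and 738 in YAP3d, and 1628, 847 and 1418 in YAP7d. The 4 YAP3d libraries lay below all others, and the log2 difference between YAP7d and YAP3d, over the 2 YAP3d libraries fitted, was 1.25 (SE 0.407, edgeR adjusted p = 0.598). Cox6a2 stood the other way, with a log2 difference of -0.84 (SE 0.273, adjusted p = 0.598). Cd8a was at 299 and 188 CPM in WT, 90.5, 1285, 0 and 143 in YAP3d, and 144, 0 and 118 in YAP7d (log2 between YAP7d and YAP3d -2.48, SE 0.768, edgeR adjusted p = 0.597). Its high value was in YAP3d replicate 2 alone, and the groups overlapped. Ifnar1, a chain of the type I interferon receptor, was at 342, 343 and 247 CPM in YAP7d, and at 272, 174, 110 and 85.7 in YAP3d (log2 1.48, SE 0.400, edgeR adjusted p = 0.513). WT was at 249 and 141.

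Sensing, interferon and antigen presentation lists showed no called gene. Between YAP7d and WT, 10 of 21 sensing genes were tested and 0 had an unadjusted p under 0.05, with a median of -0.07. Of the interferon-stimulated list 9 of 34 were tested, 0 had an unadjusted p under 0.05, and the median was 0.09. Over all tested genes 2.99% were lower and 3.05% higher at an unadjusted p under 0.05. Of 10 class II genes 7 were tested, 1 was higher at that level and the median was 0.27, and of 14 class I genes 12 were tested, 0 differed at that level and the median was 0.06. The higher class II gene was H2-Eb1, a beta chain, at 749 and 1102 CPM in WT and 1529, 1270 and 2041 in YAP7d (log2 0.88, SE 0.311, edgeR adjusted p = 0.717). Of the 7 class II genes 3, H2-Eb1, H2-Aa and H2-Ab1, were higher in YAP7d than in WT without overlap (8.8% of all tested genes). With min.count 3, 3 of 8 were higher at an unadjusted p under 0.05 (3.15% of all genes in that fit), H2-Eb1, H2-Aa and H2-DMb2. H2-Aa, an alpha chain, was at 1422 and 2955 CPM in WT and 3202, 2983 and 3765 in YAP7d (log2 0.66, SE 0.315, edgeR adjusted p = 0.767). The 10 class II genes summed to 10530 and 18950 CPM in WT and 18940, 17780 and 18320 in YAP7d. WT replicate 1 alone was low, and WT replicate 2 lay above every YAP7d library. In YAP3d the sum was 26880, 19390, 11410 and 18110. Of 25 secretory genes 21 were tested, with 1 lower and 0 higher at an unadjusted p under 0.05 and a median of -0.11. Of 19 migration and adhesion genes 13 were tested, with 1 lower, 1 higher and a median of -0.06. In 5 further lists few genes were deep enough to test: 5 of 19 of interferons and their receptors, 5 of 14 of growth factor receptors and survival, 5 of 22 of tolerance and cytotoxicity, 5 of 44 of the cell cycle and 4 of 12 of transitional dendritic cells. In each of these 0 genes had an unadjusted p under 0.05 between YAP7d and WT, and the medians were 0.04, -0.06, 0.51, 0.39 and 0.42. With min.count 3, in the same order, 1 of 7, 1 of 10, 2 of 7, 3 of 11 and 1 of 6 were higher at that level and 0 were lower (3.15% of all genes in that fit were higher). The summed cell cycle level in YAP7d was 1322, 1330 and 3635 CPM, the last in replicate 3, which held the 2 members described below.

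Whether the members changed differently from B cells of the same libraries was tested over 2876 genes with an interaction term in edgeR. Between YAP7d and WT the change differed in 15 genes (0.522% of those tested), 4 with a higher and 11 with a lower change in members, and between YAP7d and YAP3d in 5 (0.174%). For 10 of the 11 genes with a lower change in members, the mean level in B cells was higher in YAP7d than in WT, the exception being Hspa1a. Fcer1g, the shared gamma chain of Fc receptors, was at 2031 and 1494 CPM in members of WT and YAP7d and at 78.1 and 783 in B cells (difference of log2 changes -3.23, SE 0.467, edgeR adjusted p = 1.37e-05). Tyrobp, the adaptor DAP12, was at 5672 and 4813 CPM in members and at 138 and 928 in B cells (-2.66, SE 0.406, adjusted p = 2.85e-05). Lyz2 was at 130 and 290 CPM in members and at 153 and 2120 in B cells (-2.59, SE 0.507, adjusted p = 0.00236). Fcer1g and Lyz2 are expressed by macrophages and monocytes, and the part of free RNA of those cells in the B-cell values was not tested. Fdps did not differ in this way (difference -1.001, SE 0.667, adjusted p = 0.930). It was at 44.1 ± 15.7 CPM (SD, n = 2) in B cells of WT and 22.2 ± 11.3 (n = 3) in those of YAP7d. The count of 15 became 26 without YAP3d replicate 2 and 24 without YAP7d replicate 1. The count of 5 moved with every library left out. It became 15 when WT replicate 1 was dropped and 19 when WT replicate 2 was. Dropping YAP3d replicate 2 gave 12 and dropping YAP3d replicate 4 gave 8, while dropping YAP7d replicate 1, 2 or 3 gave 19, 15 or 2.

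Single members differed in a few programmes, and these cells were picked after their values were seen. The UMIs of 44 cell cycle genes had a median of 15.4 per 10000 UMIs over all members. In 103 members they were at most 30.1, and 2 members of YAP7d replicate 3 had 124 and 182, with 281 and 303 such UMIs. Both lay at the edge of the rule with 3 UMIs of Siglech and Ccr9 together, and were deep, with 22618 and 16671 UMIs. One held 326 UMIs of Ly6d, 13 of Tcf4 and 12 of Runx2, while the other held 0 of Ly6d, 1 of Tcf4, 7 of Bst2 and 10 of Lyz2. With a threshold of 5 UMIs, which kept 102 members, the highest value was 30.1. Mki67 was at 3.798 ± 5.99 CPM in members against 55.1 in other cells.

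**Figure D5:**
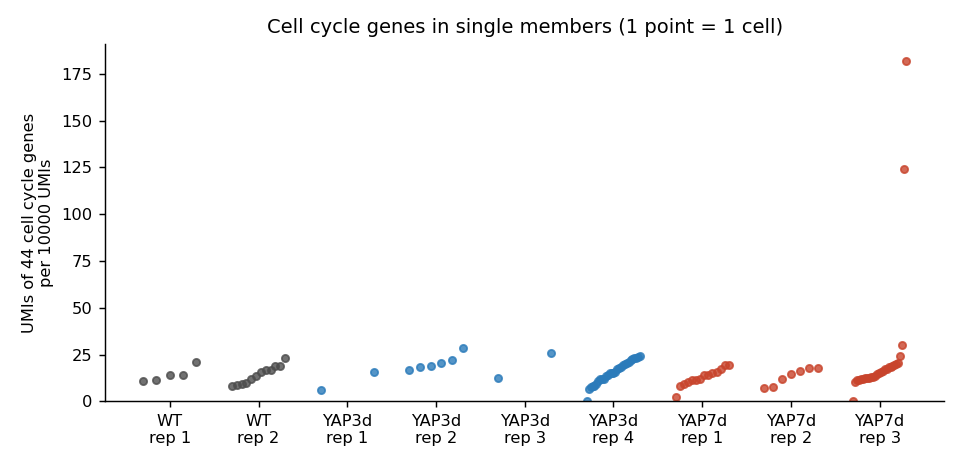
UMIs of 44 cell cycle genes per 10000 UMIs in each member, by library, with 1 point per cell. The 2 cells at 124 and 182 are both in YAP7d replicate 3 and the other 103 lie at or below 30.1.

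Isg15 exceeded 6 UMIs in 5 of 105 members. In YAP3d replicate 3, 1 of its 2 members held 17 UMIs of Isg15, 29 of Cxcl10, 8 of Cxcl9, 8 of the costimulatory receptor gene Cd40 and 16 of Hspa1a. Cd8a, which marks a subset of these cells in the mouse, was detected in 37 members and Cd4 in 68. Cd8a exceeded 10 UMIs in 3 members, 2 of YAP3d replicate 2 and 1 of YAP7d replicate 3, and its level per library ran from 0 CPM in YAP3d replicate 3 and YAP7d replicate 2 to 1285 in YAP3d replicate 2.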

How the data were processed

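The 9 single-cell libraries came from collagenase-treated whole mouse livers and were made with the Chromium v2 kit. The authors aligned reads to mm10 and counted UMIs with Cell Ranger, and Seurat 2 is named in their processing notes. The deposited table used here holds raw counts of UMIs for 27998 genes and 8562 cells (63380159 UMIs), with the library in each cell's name; 35 cells under 200 genes were left out. CPM is UMIs per 1000000 of the summed cells of a library. Libraries held 11051 to 255266 member UMIs, and those in the gene tests at least 40081.

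B cells, T cells and type 1 dendritic cells were set by marker rules (1165, 1745 and 55 cells). Member counts were summed per library, filtered with filterByExpr (min.count 10), scaled with TMM and tested by quasi-likelihood in edgeR 4.0.16 (R 4.3.3), with Benjamini-Hochberg adjustment over all tested genes and a threshold of 0.05. DESeq2 1.42.0 was a second tool. The rule's own genes were left out of the tests. Shares were compared with exact permutation tests (scipy 1.17.1). Doublets were called with Scrublet in scanpy 1.11.5 and kept. The fit was tested on simulated data with known changes.

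Genes were named when called with non-overlapping values and a mean of at least 200 CPM in a group (all called genes if under 5 passed), when among the 15 with the largest ratio to other cells (pseudocount 10 CPM), or as members of 26 lists. The ranking by ratio held only genes higher in members in every library, without Siglech and Ccr9. Members, lists and the naming rule were chosen with earlier results of these data known, and the cholesterol list after its values. Sequences and positions are from RefSeq GRCm38.p6. Alternatives covered the rule's threshold, exclusion genes, cell filters, denominators, thinning, count filters, scaling, a replicate block and leaving out each library.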

Additional observations from a re-analysis of the deposited data

Results flagged for a closer look

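In YAP3d, replicate 3 stood far from the other 3 libraries by the gap of the highest library relative to the range of the group, in 4 of 19 measures checked. Its members had 1213 CPM of Fdps, 827 of Msmo1, 1323 of Hspa1a and 937 of Isg15. This library held 2 members and was in none of the tests on genes, and chance alone flags about 1 in 20 groups.

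The change in members differed from that in B cells by the interaction term in edgeR in 15 genes between YAP7d and WT. The difference of log2 changes was -2.60 for Ly6c2, which has a near-identical neighbour, -2.59 for Lyz2, -3.23 for Fcer1g, -2.66 for Tyrobp and -4.26 for Hspa1a. It was 4.02 for the endothelial gene Igfbp7, 4.21 for the lymphotoxin gene Ltb and 2.64 for Tagap. Ltb was at 5.86 and 95.02 CPM in members of WT and YAP7d and at 914 and 790 in B cells. Igfbp7 was at 258 and 4.26 CPM in B cells of WT and YAP7d and at 106 and 20.9 in members. Over all cells Igfbp7 was at 3812 and 3318 CPM in WT and 159, 193 and 135 in YAP7d. Hspa1a over all cells was at 331 and 1339 in WT and 412, 11.5 and 9.14 in YAP7d. In members of WT its high level was in replicate 2 alone, as given above. Between YAP7d and YAP3d 5 genes differed, among them Fcer1g (-2.06), Tyrobp (-2.08) and Igfbp7 (5.02).

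Outside the members, 50 cells with at least 5 Siglech and Ccr9 UMIs were kept out by the exclusion genes, and are described with the libraries above.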

How the results depend on the processing

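Shares: the excess of YAP7d over WT stayed above 0 in 13 of 13 alternatives and that over YAP3d in 15 of 15. Leaving out 1 library gave 0.619 to 1.03 points against WT and 0.603 to 1.02 against YAP3d. Against YAP3d it was 0.485 points with cells thinned to 2000 UMIs (exact permutation p = 0.371) and 0.646 among Ptprc cells (p = 0.257), with overlapping groups in both. The unadjusted p fell under 0.05 with cells holding 500 or more genes and no more than 10% mitochondrial counts (1.12 points) and among members, B and T cells (5.47), both at an exact permutation p of 0.0286, or 0.0857 adjusted over the 3 comparisons. The difference of YAP3d from WT changed sign under these settings (-0.16 and -0.44 points), among Ptprc cells (-0.47), and without WT replicate 2 (-0.04), YAP3d replicate 2 (-0.13) or YAP3d replicate 4 (-0.06), with a range of -0.13 to 0.17 when 1 library was left out.

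Counts of called genes moved. Between YAP7d and WT they were 11 with no filter, 6 with min.count 3, 9 with at least 10 members per library, and 0 with at least 1 member or thinned cells. Leaving out 1 library gave 0 to 9, with 9 when WT replicate 1 was left out, 7 for YAP3d replicate 2, 2 for YAP7d replicate 1, 0 for YAP7d replicates 2 and 3, and 1 (Ccl4, not Fdps) for WT replicate 2. Between YAP3d and WT they were 2, 1 and 3 under the first 3 settings, and 0 to 2 leaving out 1 library (2 without WT replicate 1, 1 without WT replicate 2). Between YAP7d and YAP3d they were 8 with no filter and 5 with at least 10 members, and 0 to 3 leaving out 1 library (3 without WT replicate 1, 1 without YAP3d replicate 2, 2 without YAP3d replicate 4). Against B cells the counts were 10 to 26 (YAP7d and WT) and 2 to 19 (YAP7d and YAP3d) leaving out 1 library, and 9 with min.count 3 for the latter. The causes of these moves were not tested. Fdps kept its direction in 19 of 19 alternatives (log2 -2.56 to -1.75, adjusted p from 0.000396 to 0.667 with edgeR or DESeq2) and lost its call in 6.

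Whether replicate numbers pair the samples was not settled. Same-numbered libraries correlated at -0.14 to 0.10 in their deviations from group means. Within WT and within YAP3d the deviations of the fitted libraries mirror each other, so this check cannot exclude pairing. With the replicate block 0 genes were called between YAP7d and WT and Fdps was at -2.56 (edgeR adjusted p = 0.667).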

Other observations

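The interferon-stimulated genes of single members summed to 121 UMIs per 10000 in the median member of YAP7d replicate 1, with 90.9 in its lowest and 194 in its highest, and to medians of 55.4 to 97.3 in the other libraries. Isg15 was detected in 8 of the 14 members of that library.

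The 24 cholesterol genes of single members had medians of 23.9 and 28.9 UMIs per 10000 in WT, 24.2, 17.6, 61.3 and 15.3 in YAP3d, and 9.81, 4.93 and 5.89 in YAP7d. The highest single member of YAP7d, at 34.7, lay above the median of both WT libraries, and 4 of all members held no UMI of these genes.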
